A study of Mus musculus with 63 samples.

Results

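The 9 genes described here are markers of fat cells: Adipoq, Cidec, Cidea, Plin1, Fabp4, Cfd, Retn, Lep and Ucp1. They were taken by symbol from a table of read counts per gene that holds 23429 genes, and each was present once. They are read here per heart, as markers of fat tissue attached to, or lying within, the piece of heart that was sequenced. For Fabp4 and Cidea the values below do not follow the other members. In bulk RNA, fewer fat cells and less RNA per fat cell cannot be told apart.

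Fat cells store triglyceride in lipid droplets and release it as fatty acids. White fat cells hold a single large droplet and secrete hormones into the blood, and brown fat cells hold many small droplets and burn fatty acids for heat. The heart carries a thin layer of fat on its outer surface, along the coronary grooves and near the atria, and fat also surrounds the vessels and the sac around it. Dissection can therefore leave more or less of it on a sample.

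The members have different roles. Adipoq encodes adiponectin, Cfd encodes adipsin (complement factor D), Retn encodes resistin and Lep encodes leptin, all secreted by fat cells. Plin1 encodes perilipin 1, which coats the lipid droplet and controls access of lipases. Cidec and Cidea encode related proteins that sit where droplets touch and transfer lipid between them. Fabp4 carries fatty acids in the cytoplasm, and it is also a well known gene of capillary endothelium. Ucp1 encodes the uncoupling protein of brown and beige fat, which lets protons leak across the inner mitochondrial membrane.

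The 63 libraries came from 57 hearts of mice on the FVB/N strain background, at 3 ages, day 1 (P1) and day 21 (P21) after birth and 5 weeks. Mfn2AA hearts overexpressed human mitofusin 2 with the changes T111A and S442A, Mfn2wt hearts overexpressed the unchanged human protein, the tet-off hearts were the control line of the expression system, and nontransgenic hearts carried no transgene. The labels give neither the promoter nor the sex of the mice. The groups in that order held 3, 4, 5 and 6 hearts at P1, 6, 6, 5 and 6 at P21, and 4, 4, 3 and 4 at 5 weeks. A further 7 nontransgenic libraries of P21 (3) and 5 weeks (4) were prepared together with the P1 libraries. For 6 of them the same RNA had also been made into a library with its own age, and the seventh heart, 5wk_ntg_15933-3, was sequenced only there.

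The tissue is labelled as whole heart at P1 and left ventricle at P21 and 5 weeks, while the extraction text speaks of ventricular apexes. The 25 libraries of the P1 batch held 4557894 to 14844064 counts each, the 23 of the P21 batch 5292335 to 24339146 and the 15 of the 5-week batch 7396727 to 23732780. The row of the human transgene stood at 264 to 8051 FPKM (reads scaled by transcript length and depth) in every transgenic library and at no more than 362 FPKM in the other libraries. Its median in Mfn2AA and Mfn2wt hearts was 1959 and 298 FPKM at P1, 5600 and 1551 FPKM at P21, and 486 and 1450 FPKM at 5 weeks. The 2 lines thus also differed in transgene level, whose part in their comparisons was not tested. Cardiomyocyte markers summed to 59306 to 84758 CPM (counts scaled to library size, by the TMM method over all 63 libraries) at P1 and 72214 to 123609 CPM at P21. At 5 weeks they summed to 61024 to 77914 CPM in Mfn2AA hearts and 112424 to 132678 CPM in the other own-batch groups.

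The promoters of the 4 members that followed each other most closely across hearts, and that of Ucp1, which did not follow them in every heart, are shown so that they can be compared. Each line is the 250 bases before the annotated start, 5′ to 3′ on the strand of the gene, from RefSeq on GRCm38.p6, the assembly also called mm10. They lie at chr16:23146286-23146535 on the plus strand (Adipoq), chr6:113435761-113436010 on the minus strand (Cidec), chr7:79732777-79733026 on the minus strand (Plin1), chr10:79890603-79890852 on the plus strand (Cfd) and chr8:83290098-83290347 on the plus strand (Ucp1). Capitals mark matches to 3 motifs.
Adipoq: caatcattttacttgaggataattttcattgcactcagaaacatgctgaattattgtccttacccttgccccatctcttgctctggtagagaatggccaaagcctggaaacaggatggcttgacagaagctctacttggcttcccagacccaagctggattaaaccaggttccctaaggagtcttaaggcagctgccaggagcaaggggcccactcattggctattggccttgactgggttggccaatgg
Cidec: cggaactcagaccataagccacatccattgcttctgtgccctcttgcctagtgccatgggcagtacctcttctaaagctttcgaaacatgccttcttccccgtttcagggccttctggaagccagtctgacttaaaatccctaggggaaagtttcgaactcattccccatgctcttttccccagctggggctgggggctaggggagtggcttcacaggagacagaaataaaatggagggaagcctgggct
Plin1: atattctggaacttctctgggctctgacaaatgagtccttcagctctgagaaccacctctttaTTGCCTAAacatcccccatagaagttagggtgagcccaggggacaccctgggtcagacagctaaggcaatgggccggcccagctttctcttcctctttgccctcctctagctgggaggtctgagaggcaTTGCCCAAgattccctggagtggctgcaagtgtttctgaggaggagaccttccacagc
Cfd: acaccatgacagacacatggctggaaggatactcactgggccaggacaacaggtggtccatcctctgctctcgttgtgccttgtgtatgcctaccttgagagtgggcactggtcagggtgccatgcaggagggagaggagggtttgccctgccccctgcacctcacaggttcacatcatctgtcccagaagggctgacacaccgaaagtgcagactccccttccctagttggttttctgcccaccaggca
Ucp1: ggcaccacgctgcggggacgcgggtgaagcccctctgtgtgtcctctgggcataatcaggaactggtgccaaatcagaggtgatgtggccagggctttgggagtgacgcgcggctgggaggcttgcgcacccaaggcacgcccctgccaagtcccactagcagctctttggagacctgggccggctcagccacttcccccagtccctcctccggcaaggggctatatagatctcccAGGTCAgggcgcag

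The motifs searched on both strands were AGGTCA, the half-site bound by PPAR/RXR, the core heterodimer that drives fat cell differentiation, TTGCNNAA, the sequence bound by C/EBP factors, and TATAAA. Among all 32851 promoter windows of the same length, 14.0% held AGGTCA, 9.56% held TTGCNNAA and 12.4% held TATAAA. The Plin1 window held the C/EBP motif in 2 places, at bases -187 to -180 and -58 to -51 before the start. The Ucp1 window held 1 AGGTCA at -14 to -9, and the Lep window, not printed, held TTGCGCAA at -55 to -48, which reads the same on both strands. These letters were not found in the windows of Adipoq, Cidec (the entry nearest its annotated start), Cfd and Retn. A match describes the letters only. Fabp4 and Cidea had no entry, so 7 of the 9 members were searched.

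In the annotation deposited with the counts (mm10), Adipoq lies on chromosome 16 at 23146536 to 23157968 with 3 exons, and Cidec on chromosome 6 at 113424636 to 113435755 with 6 exons in its longest transcript. Plin1 lies on chromosome 7 at 79721164 to 79732776 with 9 exons, and Cfd on chromosome 10 at 79890853 to 79892656 with 5 exons. Retn and Ucp1 are both on chromosome 8, at 3655770 to 3659818 and at 83290348 to 83298456. Lep is on chromosome 6 at 29060221 to 29073876, Fabp4 on chromosome 3 at 10204343 to 10208576 and Cidea on chromosome 18 at 67343564 to 67367794. No member shares exonic bases with another annotated gene, which matters because the counting did not use strand.

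The members fell into 3 kinds by their levels. Adipoq, Cidec, Plin1, Cfd, Retn and Lep were near 0 at P1, present in some hearts at P21 and present in nearly all hearts at 5 weeks. Ucp1 was near 0 in most hearts of every age and very high in a few. Cidea and Fabp4 were high in every heart at every age, also where the other members were near 0.

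**Figure D1:**
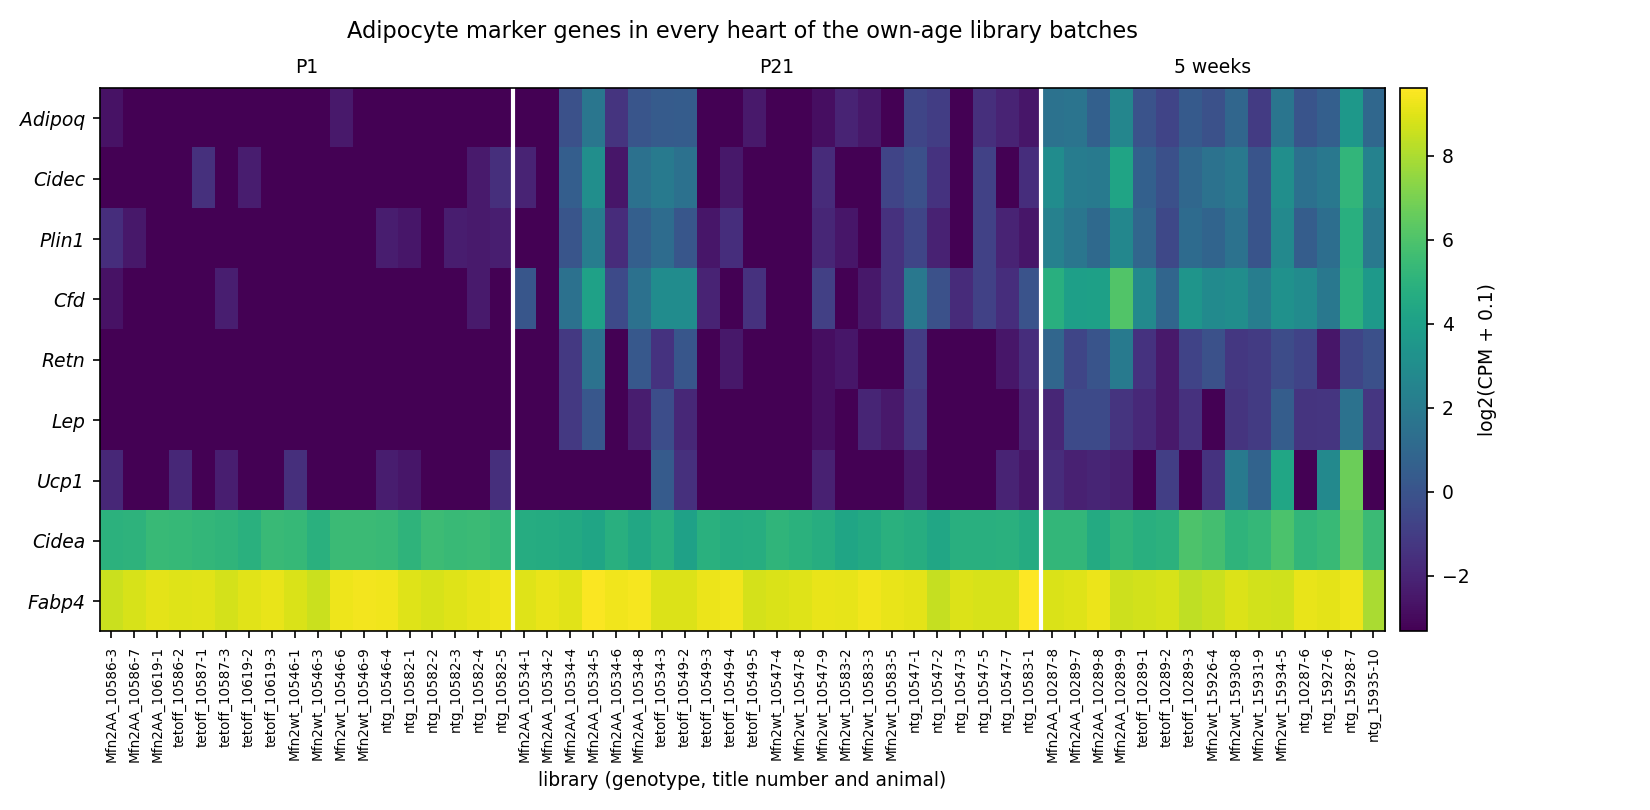
Heat map of the 9 members (rows) in the 56 libraries prepared with their own age (columns, ordered by age and group), coloured by log2(CPM + 0.1). Fabp4 and Cidea are bright in every column, the 6 genes from Adipoq to Lep are dark at P1, patchy at P21 and brighter at 5 weeks, and Ucp1 is bright in a few 5-week columns only.

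At P1, the libraries held almost no reads of the specific fat cell genes. Over the 18 P1 libraries there were 2 counts of Adipoq, 6 of Cidec, 10 of Plin1, 4 of Cfd, 14 of Ucp1 and none of Retn or Lep. No P1 library held more than 0.346 CPM of the 6 genes Adipoq, Cidec, Plin1, Cfd, Retn and Lep together. A count of 0 in a group such as the 6 nontransgenic P1 hearts still allows 3 counts over the group.

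At P21, reads of the 6 genes were present but unevenly spread. Adipoq had a count in 15 of 23 own-batch libraries, with a median of 0.0849 CPM and a highest value of 3.29 CPM. Cfd, the most abundant of the 6 in counts, had a count in 18 of 23 libraries, with a median of 0.454 CPM and a highest value of 16.8 CPM. Most P21 hearts were thus near the lowest detectable level for these genes while a few were well above it. Retn and Lep had a count in 11 and 10 of the 23 libraries.

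At 5 weeks, Adipoq, Cidec, Plin1, Cfd and Retn had counts in all 15 own-batch libraries and Lep in 14. Adipoq ran from 0.368 to 11.9 CPM with a median of 1.44, and Cfd from 1.74 to 69.1 CPM with a median of 9.32. Cidec ran from 0.783 to 36.9 CPM and Plin1 from 0.609 to 28.6 CPM, so the range within the age was again wide. On the per-length scale of the deposited FPKM, the 5-week medians were 10.2 for Cfd, 2.19 for Cidec, 1.37 for Adipoq, 1.23 for Plin1, 1.20 for Retn and 0.0795 for Lep. Cfd therefore had the highest level per length among the 6 and Lep the lowest.

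Fabp4 stood far above these genes per length at every age, and Cidea did at P1 and P21. The median FPKM of Fabp4 was 1321 at P1, 1182 at P21 and 892 at 5 weeks, and that of Cidea was 46.9, 26.0 and 34.6. At 5 weeks Cidea was not above Cfd in every group, since in Mfn2AA hearts Cfd measured 44.3 ± 34.8 FPKM (SD, n = 4) and Cidea 33.8 ± 5.63 FPKM. At P1, where the 6 genes were almost absent, Fabp4 ran from 376 to 671 CPM and Cidea from 29.3 to 46.0 CPM over 18 libraries. Fabp4 alone made up 67.0% to 96.8% of the summed CPM of the 9 members in a library. A sum over all 9 is thus mostly a measure of Fabp4.

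**Figure D2:**
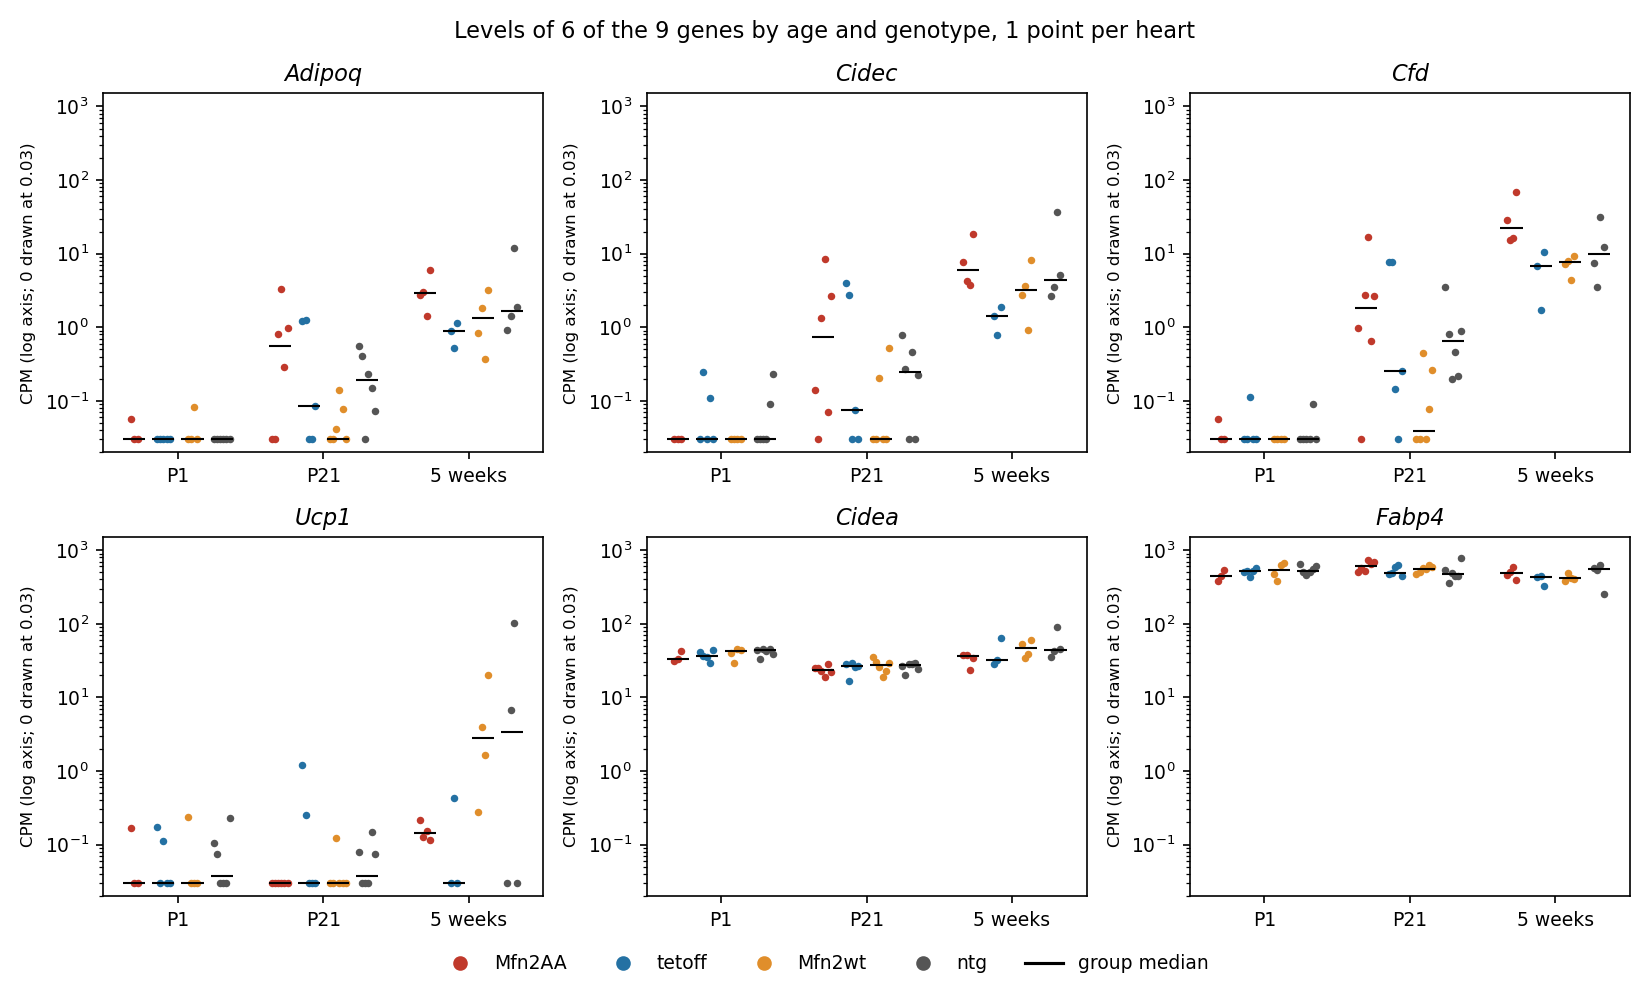
Level of 6 members (Adipoq, Cidec, Cfd, Ucp1, Cidea, Fabp4) in each own-batch library by group, in CPM on a log axis; values of 0 are drawn at 0.03 and a line marks each group's median. Adipoq, Cidec and Cfd climb from 0 or near it at P1 to 0.368 CPM or more in every 5-week heart, and Ucp1 reaches 103 CPM in 1 heart. Cidea and Fabp4 keep a narrower range, with Cidea highest at 91.1 CPM in a 5-week heart.

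Ages were compared among nontransgenic hearts only, with all libraries prepared together (6 hearts at P1, 3 at P21, 4 at 5 weeks), since each age was otherwise its own preparation. The design sets out these added libraries for that purpose. The tissue label changes with age too, from whole heart at P1 to left ventricle at P21 and 5 weeks. Age and the dissected piece of heart cannot be told apart in the comparisons with P1. From P21 to 5 weeks, 4 of the 7 members that passed the filter on low counts were higher (Adipoq, Cidec, Plin1 and Cfd) and none was lower. Of all genes tested in this comparison, 22.4% were called, and 11.6% called higher, at a Benjamini-Hochberg adjusted p under 0.05 in edgeR's quasi-likelihood test. A member that passed the filter through 1 group only had to be higher there, so the count of members is not read as a result about the list.

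Adipoq measured 0.880, 0 and 0 CPM in the 3 P21 hearts and 1.22, 11.8, 2.13 and 1.21 CPM in the 4 hearts of 5 weeks. The groups did not overlap, and heart 5wk_ntg_15928-7 stood far above the other 5-week hearts. The log2 fold change was 3.73 ± 1.04 (SE, adjusted p = 0.0231, edgeR). Without heart 5wk_ntg_15928-7 the log2 fold change was 2.24 and the adjusted p 0.0805, and the call was also lost without P21_ntg_10547-2 (adjusted p = 0.068) or P21_ntg_10547-5 (adjusted p = 0.0685). Without P21_ntg_10547-1 no Adipoq count was left at P21. With DESeq2 Adipoq was not called (3.83, adjusted p = 0.225).

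Cidec measured 0.160, 0.161 and 0.221 CPM at P21 and 2.31, 33.4, 2.72 and 1.91 CPM at 5 weeks. Its groups did not overlap and heart 5wk_ntg_15928-7 was again the highest. The log2 fold change was 5.83 ± 1.16 (adjusted p = 0.0021, edgeR), and 3.63 without that heart, still called. Plin1, which guards the droplet surface, differed by 4.29 ± 0.94 (adjusted p = 0.00406, edgeR) and by 2.37 without 5wk_ntg_15928-7, where it was also called. With limma on log2(FPKM + 1) it was not (1.43, adjusted p = 0.069).

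Cfd measured 1.68, 0.806 and 0.663 CPM at P21 and 3.53, 28.1, 5.55 and 7.46 CPM at 5 weeks. Every 5-week heart was above every P21 heart. The log2 fold change was 3.41 ± 0.61 (adjusted p = 0.00104, edgeR) and 2.32 without 5wk_ntg_15928-7, also called. Retn differed by 1.73 ± 0.60 with overlapping groups and was not called (adjusted p = 0.0568, edgeR). Lep, below the filter, had 33 counts at 5 weeks against 2 at P21, a ratio per depth of 17.5 (95% exact interval 4.48 to 151, counting error only).

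Cidea and Fabp4 did not pass the threshold from P21 to 5 weeks. Cidea differed by 0.66 ± 0.29 (adjusted p = 0.11, edgeR) and Fabp4 by -0.29 ± 0.16 (adjusted p = 0.194, edgeR).

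From P1 to P21, 3 of 7 tested members were called, where 57.6% of all tested genes were. Cfd and Retn were higher. Retn had no count in the 6 P1 hearts and 0.560, 0.322 and 0.111 CPM in the 3 P21 hearts, at least 7.62-fold higher against 3 counts over the P1 group (adjusted p = 0.00359, edgeR). Cfd had 1 count at P1 (in P1_ntg_10582-4) and 37 at P21, a ratio of 70.4 with an exact interval of 11.9 to 2857 (adjusted p = 0.0038, edgeR). For both genes the groups did not overlap, and both passed the filter through the later ages.

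Cidea fell by 0.68 on the log2 scale (SE 0.27, adjusted p = 0.0381, edgeR). It ran from 33.4 through a median of 43.4 to 46.0 CPM in the 6 P1 hearts and measured 25.6, 27.4 and 26.3 CPM in the 3 P21 hearts, with no overlap. Fabp4 overlapped between the ages (0.09 ± 0.14, adjusted p = 0.62, edgeR). Adipoq had all of its 11 P21 counts in heart P21_ntg_10547-1 and was not called (4.73 ± 2.52, adjusted p = 0.126, edgeR). Plin1 (2.00 ± 1.68) and Cidec (1.66 ± 2.52) were not called either. The call of Cidea is the least firm of the 3, since it was lost in 7 of the 9 fits that left out 1 heart, with an adjusted p up to 0.0984.

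Across the whole interval from P1 to 5 weeks, 5 of 7 tested members were higher, where 67.7% of all genes were called and 32.8% called higher. Adipoq had no count at P1 and 156 at 5 weeks, at least 105-fold higher (adjusted p = 0.000172, edgeR). Cidec had 3 counts against 397, a ratio of 268 (interval 90.9 to 1304). Cfd had 1 count against 407, a ratio of 823 (interval 147 to 32598). Plin1 differed by 6.29 ± 0.93 on the log2 scale (adjusted p = 1.1e-05, edgeR), and Retn was at least 25.6-fold and Lep at least 22.3-fold higher against 3 counts over the P1 group. The called genes were near 0 at P1 and passed the filter through the later ages. Neither their number nor their lack of overlap between the ages is thus read as a result about the list. The share of all genes without overlap was not counted. Cidea (-0.02 ± 0.24, adjusted p = 0.942, edgeR) and Fabp4 (-0.20 ± 0.13, adjusted p = 0.194, edgeR) were not called. Without heart 5wk_ntg_15928-7 the log2 fold changes of Cidec, Plin1, Cfd and Adipoq were 5.30, 4.37, 7.59 and 6.96, all called, and Retn did not pass the filter. Without that heart the difference of Cidea was -0.60 (adjusted p = 0.000278, edgeR), a call that the full set did not give.

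Other genes of fat cells, from lists that the members are not part of, gave a mixed picture over the same ages. Of 30 tested genes of white and brown fat cells, 21 were higher and 4 lower at P21 than at P1, led by Pnpla3 (3.93, a lipase), Scd1 (2.71, which desaturates fatty acids), Sncg (2.42) and Thrsp (2.23, a gene of lipid synthesis). From P21 to 5 weeks 19 were higher and none lower, led by Pck1 (5.95, which feeds glycerol synthesis in fat cells), Car3 (3.85, a carbonic anhydrase), Fasn (2.53, fatty acid synthase) and Thrsp (1.85). Genes of brown fat gave 7 higher and 2 lower, then 3 higher and 1 lower, among 14 tested. Of 10 genes of fat cell precursors and adipose stroma, 5 were higher and 3 lower at P21 than at P1, with Dlk1 (-5.54) and Bmp7 (-4.25) lowest and Pi16 (3.68) and Ly6a (2.97) highest. Many of these genes are also expressed by heart muscle, vessels or fibroblasts. Atrial markers moved the other way from P21 to 5 weeks, with 7 of 9 lower, a sum of 1019 to 8356 CPM at P21 against 221 to 940 CPM at 5 weeks, and none at 0 in all libraries. The part of attached atrial tissue in the members' levels was not tested.

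The genotype comparison at P1 held only Cidea and Fabp4, since the other 7 members did not pass the filter. Neither was called in any of the 4 comparisons by edgeR or DESeq2, or had an unadjusted p under 0.05 (edgeR), where 0.125% (Mfn2AA against Mfn2wt), 0.00732% (Mfn2AA against tet-off), 0.146% (Mfn2wt against nontransgenic) and 1.3% (tet-off against nontransgenic) of all genes were. The greatest difference was that of Fabp4 between Mfn2AA and Mfn2wt, -0.25 ± 0.18 (adjusted p = 0.642, edgeR). Fabp4 measured 453 ± 77.2 CPM (SD, n = 3) in Mfn2AA hearts and 534 ± 136 CPM (SD, n = 4) in Mfn2wt hearts.

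At P21, the fat cell genes were higher in Mfn2AA hearts than in Mfn2wt hearts, and the difference was carried by 3 of the 6 Mfn2AA hearts. Of 6 members that passed the filter, Adipoq, Cidec, Plin1 and Cfd were called higher, and Cidea and Fabp4 were not called. Of all 13585 genes tested, 13.7% were called and 7.52% called higher. Mfn2wt hearts held at most 0.142 CPM of Adipoq, 0.519 of Cidec, 0.259 of Plin1 and 0.454 of Cfd. These genes passed the filter through hearts of other groups, so the count of members is not read as a result about the list.

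Adipoq ran from 0 through a median of 0.550 to 3.29 CPM in the 6 Mfn2AA hearts and from 0 through 0.0206 to 0.142 CPM in the 6 Mfn2wt hearts. Hearts P21_Mfn2AA_10534-4, P21_Mfn2AA_10534-5 and P21_Mfn2AA_10534-8 were the high ones, with 0.813, 3.29 and 0.972 CPM, while P21_Mfn2AA_10534-1 and P21_Mfn2AA_10534-2 had no count, so that the groups overlapped. This was a log2 fold change of 4.08 ± 1.11 (adjusted p = 0.0158, edgeR).

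Cfd ran from 0 through 1.84 to 16.8 CPM in Mfn2AA hearts and from 0 through 0.0385 to 0.454 CPM in Mfn2wt hearts. It differed by 4.54 ± 1.23 (adjusted p = 0.0153, edgeR), again with overlap, since P21_Mfn2AA_10534-2 had no count. Cidec ran from 0 through 0.748 to 8.35 CPM against 0 through 0 to 0.519 CPM, a difference of 4.00 ± 1.21 (adjusted p = 0.029, edgeR). Plin1 ran from 0 through 0.582 to 4.32 CPM against 0 through 0.0355 to 0.259 CPM, a difference of 3.58 ± 1.05 (adjusted p = 0.0244, edgeR). The 3 hearts that were high for Adipoq were the 3 highest for each of these genes too.

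All 6 Mfn2AA hearts of P21 carry 1 number before the hyphen of their titles, which no Mfn2wt heart carries and whose meaning the labels do not give. Genotype and what that number stands for cannot be told apart in this comparison. Tet-off heart P21_tetoff_10534-3, which carries the same number, had the highest sum of the 6 genes among the tet-off hearts (16.1 CPM).

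The secreted hormones below the filter showed the same hearts on top. Retn measured 0.339, 2.78 and 1.08 CPM in P21_Mfn2AA_10534-4, P21_Mfn2AA_10534-5 and P21_Mfn2AA_10534-8 and 0 in the other 3 Mfn2AA hearts, 53 counts in all against 2 in Mfn2wt hearts, a ratio of 31.8 (exact interval 8.37 to 269). Lep measured 0.339, 1.03 and 0.108 CPM in those hearts. Ucp1 had no count in any of the 6 Mfn2AA hearts.

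The calls depended on several single hearts, most of all on P21_Mfn2AA_10534-5. Without P21_Mfn2AA_10534-5, Adipoq and Plin1 no longer passed the filter, and Cfd (3.01, adjusted p = 0.106) and Cidec (2.63, adjusted p = 0.172) were not called. Without P21_Mfn2AA_10534-4 or without P21_Mfn2AA_10534-8, Adipoq and Plin1 fell below the filter and Cfd and Cidec remained called. The call of Cidec was lost without any 1 of the Mfn2wt hearts P21_Mfn2wt_10547-8, P21_Mfn2wt_10547-9, P21_Mfn2wt_10583-2 and P21_Mfn2wt_10583-3 (adjusted p up to 0.0602), and that of Plin1 without P21_Mfn2wt_10547-8 (adjusted p = 0.0513). With DESeq2 the adjusted p of Cidec was 0.0803. The difference was greatest for Adipoq without P21_Mfn2wt_10583-2 (4.66), for Cfd without P21_Mfn2wt_10547-9 (5.77) and for Cidec without P21_Mfn2wt_10583-5 (4.87).

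The same 3 Mfn2AA hearts were high in markers of atrial muscle. The 9 atrial markers, Myl7, Myl4, Sln, Nppa, Bmp10, Mybphl, Stard10, Dkk3 and Gja5, summed to 4649, 8154 and 5329 CPM in P21_Mfn2AA_10534-4, P21_Mfn2AA_10534-5 and P21_Mfn2AA_10534-8 and to 81.1 to 397 CPM in the other 3 Mfn2AA hearts. The Mfn2wt hearts ran from 102 to 1126 CPM, and 2 of the 9 markers were called higher in Mfn2AA hearts. Macrophage markers were also higher, with 8 of 10 called and sums of 564 to 1040 CPM against 438 to 552 CPM, and their part in the members' levels was not tested. In a fit without the 5 P21 libraries with an atrial sum above 4000 CPM (3 Mfn2AA, 1 tet-off and 1 nontransgenic, chosen after the values were seen), only Cfd, Cidea and Fabp4 passed the filter and none was called. The 3 Mfn2AA hearts left out are the ones that held the high values, so that fit says nothing on the part of atrial tissue, which was not tested.

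High atrial markers and high fat cell genes did not go together in every P21 heart. The 6 genes summed to 6.51, 36.6 and 8.96 CPM in the 3 Mfn2AA hearts with high atrial markers. In tet-off heart P21_tetoff_10534-3 they summed to 16.1 CPM beside an atrial sum of 400 CPM, and in nontransgenic heart P21_ntg_10547-2 they summed to 1.65 CPM beside 7554 CPM. Tet-off heart P21_tetoff_10549-2 was high for both, with 13.9 CPM and 10478 CPM. Over the P21 libraries several atrial markers did follow Adipoq, by Pearson's r of log2(CPM + 0.5) after each group's mean was taken off. This r was 0.75 for Stard10 and Nppa, 0.68 for Mybphl, 0.66 for Myl4, 0.65 for Sln and 0.60 for Myl7.

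**Figure D3:**
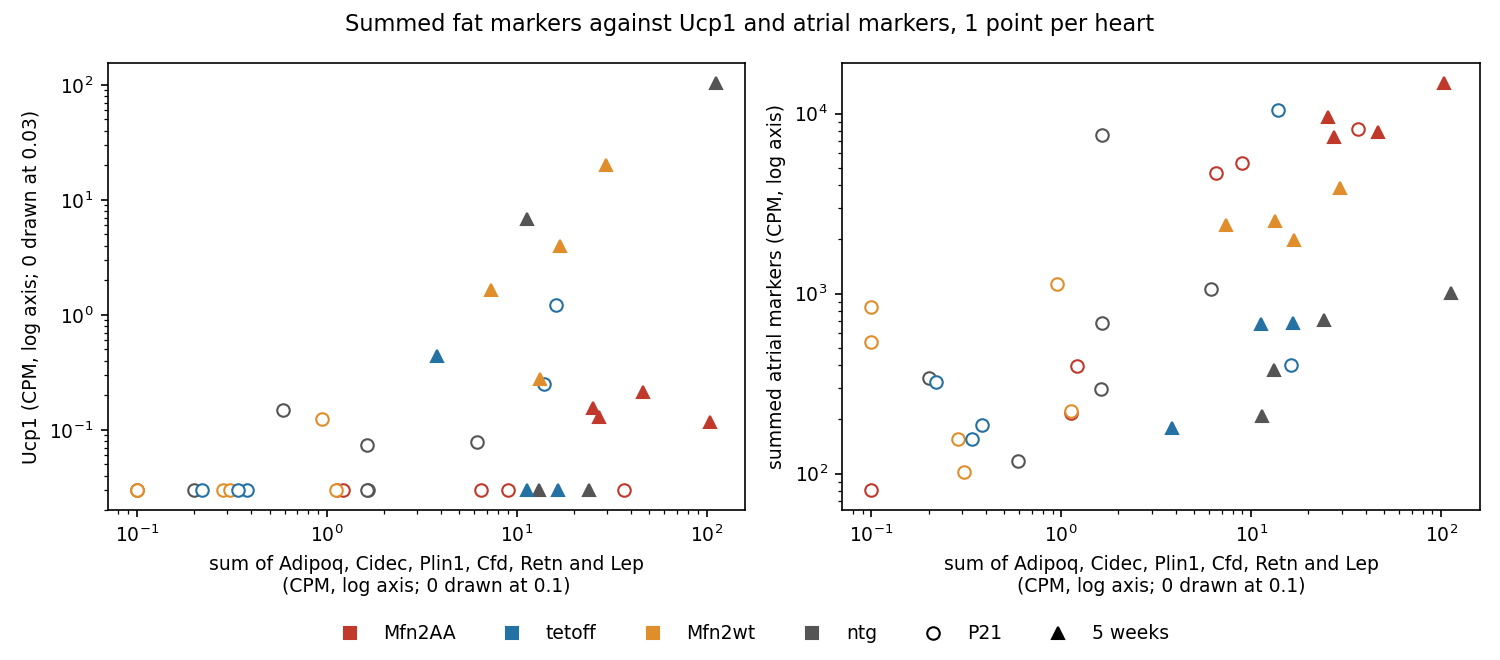
Summed CPM of Adipoq, Cidec, Plin1, Cfd, Retn and Lep in each own-batch library of P21 and 5 weeks (horizontal, log axis, 0 drawn at 0.1) against Ucp1 in CPM (0 drawn at 0.03) and against the summed atrial markers in CPM (vertical, log axes). Hearts 5wk_ntg_15928-7 and 5wk_Mfn2AA_10289-9, with sums of 112 and 104 CPM, have 103 and 0.116 CPM of Ucp1. At P21 the heart with a sum of 16.1 CPM has a low atrial sum of 400 CPM.

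Against the tet-off hearts of P21, none of the 6 tested members was called in Mfn2AA hearts by edgeR or DESeq2 or had an unadjusted p under 0.05 (edgeR), where 0.574% of all genes were called. Adipoq measured 1.21, 1.26, 0, 0 and 0.0849 CPM in the 5 tet-off hearts, and 2 of them were thus as high as the upper Mfn2AA hearts. Cfd measured 7.67, 7.65, 0.147, 0 and 0.255 CPM in the same hearts. The log2 fold change was 0.86 ± 0.79 for Adipoq (adjusted p = 0.743, edgeR), 0.37 ± 0.88 for Cfd (adjusted p = 0.928), 0.64 ± 0.90 for Cidec (adjusted p = 0.853) and 0.68 ± 0.79 for Plin1 (adjusted p = 0.81). Ucp1 had 21 counts in tet-off hearts, 18 of them in P21_tetoff_10534-3, and none in Mfn2AA hearts, at least 7.68-fold lower against 3 counts over the group.

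The control comparisons at P21 gave no call by edgeR or DESeq2 either, and no member had an unadjusted p under 0.05 (edgeR). Between Mfn2wt and nontransgenic hearts (0.604% of all genes called), Adipoq differed by -2.19 ± 1.45 (adjusted p = 0.836, edgeR) and Cfd by -2.69 ± 1.45 (adjusted p = 0.717). Between tet-off and nontransgenic hearts (1.63% of all genes called), Cidec differed by 2.12 ± 1.21 (adjusted p = 0.512, edgeR) and Adipoq by 1.03 ± 1.01 (adjusted p = 0.765). Adipoq ran from 0 through 0.191 to 0.552 CPM in the 6 nontransgenic hearts, between the levels of the Mfn2wt and the higher tet-off hearts. These comparisons share the nontransgenic hearts.

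Cidea and Fabp4 differed little among the P21 groups. Cidea had group means of 23.7 ± 3.19 CPM (SD, n = 6) in Mfn2AA, 27.1 ± 5.77 CPM (n = 6) in Mfn2wt, 25.3 ± 5.01 CPM (n = 5) in tet-off and 26.3 ± 3.44 CPM (n = 6) in nontransgenic hearts. Fabp4 had means of 613 ± 91.7, 553 ± 59.5, 529 ± 82.3 and 511 ± 144 CPM in the same order. All of their groups overlapped, and the difference between Mfn2AA and Mfn2wt hearts was -0.19 ± 0.13 for Cidea (adjusted p = 0.368, edgeR) and 0.15 ± 0.14 for Fabp4 (adjusted p = 0.501, edgeR).

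Among other fat cell genes at P21, 8 of 30 tested were higher and none lower in Mfn2AA than in Mfn2wt hearts, with a median of 0.22 against -0.01 over all genes. They were led by Car3 (3.54 ± 1.04, adjusted p = 0.0242, edgeR), Pck1 (3.23 ± 1.03, adjusted p = 0.038), Cebpa (1.14 ± 0.20, adjusted p = 0.00055), a transcription factor of fat cell differentiation, and Mgst1 (0.83 ± 0.20, adjusted p = 0.00752). Of 14 brown fat genes 1 was higher, Slc36a2 (0.49), and 3 were lower, Ppargc1a (-0.52), Fabp3 (-0.51) and Gyk (-0.41), which heart muscle also expresses. Of 9 genes of precursors and adipose stroma, Pi16 was higher (0.70) and Cd34 lower (-0.35). Against tet-off hearts only Pnpla3 (-1.02) was called among the same 3 lists.

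At 5 weeks the members parted. Cfd and Retn were higher in Mfn2AA hearts than in Mfn2wt hearts and Ucp1 was lower, while Adipoq, Cidec, Plin1, Cidea and Fabp4 were not called. That is 3 of 8 tested members beside 38.5% of all tested genes called in this comparison, near the background.

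Cfd measured 28.9, 15.4, 16.5 and 69.1 CPM in the 4 Mfn2AA hearts and 7.23, 8.02, 4.41 and 9.32 CPM in the 4 Mfn2wt hearts. Every Mfn2AA heart was above every Mfn2wt heart, and 5wk_Mfn2AA_10289-9 was the highest. On the log2 scale this was 2.14 ± 0.66 (adjusted p = 0.018, edgeR), and 1.47 without 5wk_Mfn2AA_10289-9 (adjusted p = 0.0816), when no member was called. The call was also lost without Mfn2wt heart 5wk_Mfn2wt_15931-9 (adjusted p = 0.0543). The ribosomal RNA row Rn45s took 34.4% of the counts in 5wk_Mfn2wt_15926-4 and 17.6% in 5wk_Mfn2wt_15931-9, against 4.31% to 8.72% in the Mfn2AA hearts, and its part in the differences was not tested.

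Retn measured 1.82, 0.556, 0.932 and 3.89 CPM in Mfn2AA and 0.834, 0.330, 0.368 and 0.708 CPM in Mfn2wt hearts. The groups overlapped and the log2 fold change was 1.80 ± 0.68 (adjusted p = 0.0462, edgeR). Retn lost the call without any 1 of the 4 Mfn2wt hearts and did not pass the filter without Mfn2AA heart 5wk_Mfn2AA_10287-8, 5wk_Mfn2AA_10289-8 or 5wk_Mfn2AA_10289-9.

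Ucp1 measured 0.214, 0.128, 0.155 and 0.116 CPM in Mfn2AA and 0.278, 3.96, 1.66 and 19.9 CPM in Mfn2wt hearts. No Mfn2AA heart reached the lowest Mfn2wt heart in CPM, and 5wk_Mfn2wt_15934-5 was far above the rest. That lowest value was 1 count in 5wk_Mfn2wt_15926-4, with a TMM factor of 0.486. The Mfn2AA hearts held 4, 3, 4 and 2 counts, so the lack of overlap rests on the scaling of 1 count. The log2 fold change of Ucp1 was -5.40 ± 1.85 (adjusted p = 0.03, edgeR), -3.92 without 5wk_Mfn2wt_15934-5 (adjusted p = 0.143), and not called without any 1 of the 4 Mfn2AA hearts (-5.32 to -5.58). With limma on log2(FPKM + 1) the difference was -1.46 and not called (adjusted p = 0.274).

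The remaining members overlapped between these groups. Adipoq measured 2.78, 3.04, 1.44 and 5.93 CPM in Mfn2AA and 0.834, 1.84, 0.368 and 3.19 CPM in Mfn2wt hearts (0.93 ± 0.75, adjusted p = 0.355, edgeR). Cidec differed by 1.07 ± 0.81 (adjusted p = 0.326, edgeR) and Plin1 by 0.36 ± 0.83 (adjusted p = 0.771). Cidea differed by -0.48 ± 0.32 (adjusted p = 0.257, edgeR) and Fabp4 by 0.20 ± 0.22 (adjusted p = 0.522).

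Against tet-off hearts at 5 weeks, Cfd and Retn were again the called members, 2 of 8, where 35% of all genes were called and 18.9% called higher. Cfd measured 6.73, 1.74 and 10.6 CPM in the 3 tet-off hearts, all below the Mfn2AA hearts (2.39 ± 0.74, adjusted p = 0.0194, edgeR). Retn measured 0.269, 0.0869 and 0.511 CPM in tet-off hearts, also all below (2.69 ± 0.79, adjusted p = 0.0153, edgeR). Adipoq (0.897, 0.522 and 1.15 CPM) and Cidec (1.44, 0.783 and 1.91 CPM) did not overlap with Mfn2AA hearts but were not called, at 1.97 ± 0.89 (adjusted p = 0.0983, edgeR) and 2.67 ± 1.00 (adjusted p = 0.0501, edgeR). Plin1 (1.48 ± 0.97, adjusted p = 0.26, edgeR), Cidea (-0.30 ± 0.34), Fabp4 (0.29 ± 0.24) and Ucp1 (5 counts, all in heart 5wk_tetoff_10289-2, against 13) overlapped and were not called. No member was called without Mfn2AA heart 5wk_Mfn2AA_10289-9 or without tet-off heart 5wk_tetoff_10289-1 or 5wk_tetoff_10289-2, and with DESeq2 or with the 2 groups alone 4 members were. Without 5wk_tetoff_10289-3 the difference of Retn was 3.28. The Mfn2AA hearts are the same in both comparisons.

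**Figure D4:**
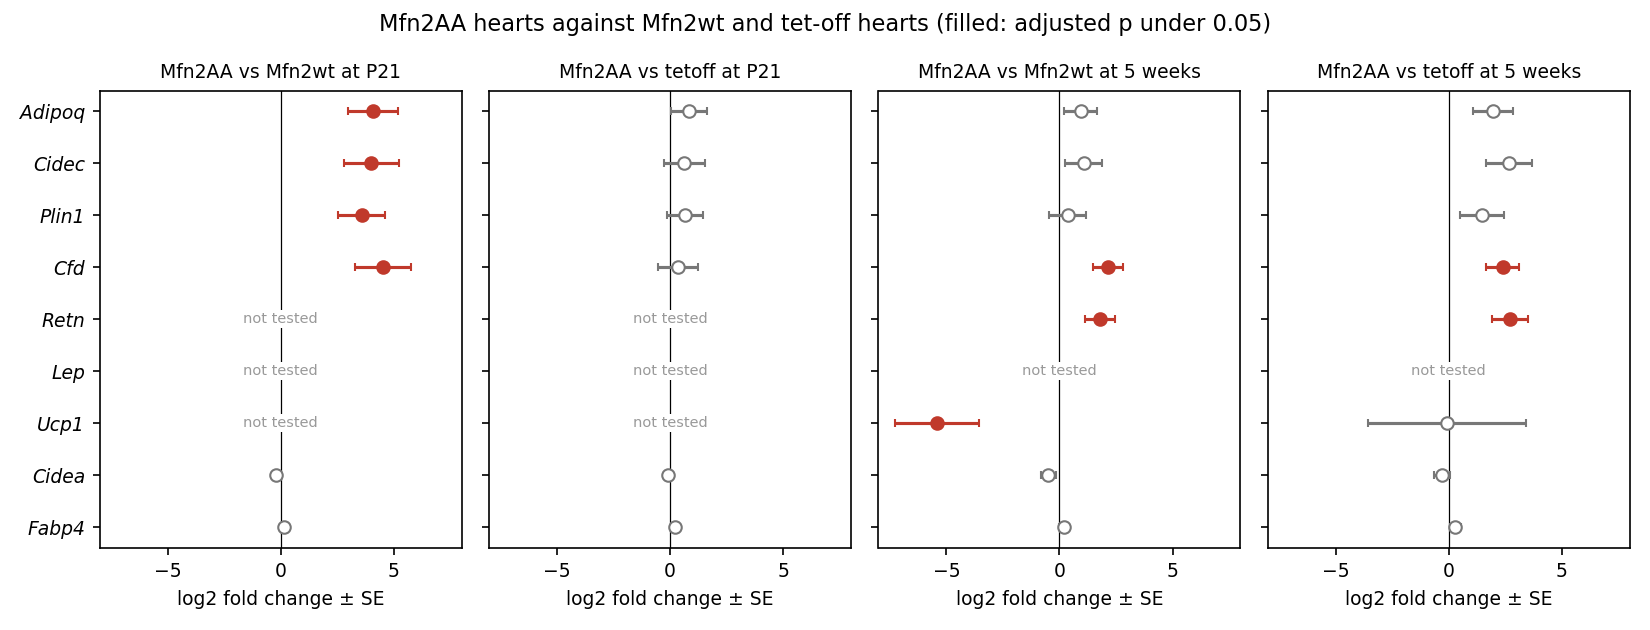
Log2 fold change of each member in Mfn2AA hearts against Mfn2wt and against tet-off hearts at P21 and at 5 weeks (horizontal axis, bars are ± SE, edgeR), with filled points where the adjusted p was under 0.05 and members below the filter marked as not tested. Filled points are Adipoq, Cidec, Plin1 and Cfd against Mfn2wt at P21, Cfd, Retn and Ucp1 against Mfn2wt at 5 weeks, and Cfd and Retn against tet-off at 5 weeks.

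Mfn2AA hearts of 5 weeks differed from the other groups in much else. Macrophage markers summed to 847 to 2495 CPM in them against 407 to 654 CPM in the other own-batch groups, with 9 of 10 called higher against Mfn2wt and 10 of 10 against tet-off hearts. Fibroblast markers summed to 13903 to 20266 CPM in them against 3736 to 5744 CPM in the other own-batch groups, with 8 of 10 called higher in each of the comparisons with Mfn2wt and tet-off hearts. Atrial markers summed to 7428 to 14710 CPM against 1991 to 3853 CPM in Mfn2wt, 208 to 1007 CPM in nontransgenic and 179 to 687 CPM in tet-off hearts, though only 1 (higher) and 3 (lower) of 9 were called against Mfn2wt. The part of these cells in Cfd and Retn was not tested. The other fat cell genes gave 2 higher and 13 lower of 31 against Mfn2wt and 2 higher and 8 lower against tet-off hearts, and brown fat genes 2 and 9, then 1 and 8, of 14. Genes of precursors and adipose stroma gave 5 higher and 1 lower, then 4 higher and none lower, of 9.

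The control comparisons at 5 weeks called no member by edgeR or DESeq2, with 0.388% (Mfn2wt against nontransgenic) and 0.117% (tet-off against nontransgenic) of all genes called. Cidec measured 2.65, 3.58, 36.9 and 5.20 CPM in the 4 nontransgenic hearts, all above the tet-off hearts, and differed by -3.19 ± 1.01 (adjusted p = 0.617, edgeR). Ucp1 measured 0, 6.78, 103 and 0 CPM in the nontransgenic hearts and differed by -7.36 ± 2.26 for tet-off (adjusted p = 0.557, edgeR) and by -2.02 ± 1.29 for Mfn2wt hearts (adjusted p = 1.0). At an unadjusted p under 0.05 (edgeR), 0 of 8 members and 717 of all 13661 genes passed between Mfn2wt and nontransgenic hearts, and 4 members and 604 genes between tet-off and nontransgenic hearts. The 4 were Cidec, Ucp1, Adipoq (-2.28 ± 0.90, adjusted p = 0.963, edgeR) and Plin1 (-2.61 ± 0.98, adjusted p = 0.887, edgeR). A single heart, 5wk_ntg_15928-7, held 1118 of the 1209 Ucp1 counts of the nontransgenic group.

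How far the difference between Mfn2AA and Mfn2wt hearts itself moved with age was fitted for all 9 members, and edgeR called none. Cidec, Retn and Lep had no count in these P1 groups and could not be called from P1 to P21 (SE 21620, 22536 and 8726). Cfd had 1 count there (SE 28.6) and Adipoq 1 in each group (SE 4.64). Plin1 had 5 counts in Mfn2AA and none in Mfn2wt hearts at P1. Its fitted shift to P21 was -0.08 ± 0.19, although its difference at P21 was 3.58. From P21 to 5 weeks the same holds for Ucp1 (SE 29.6), which had no count in P21 Mfn2AA hearts. The absent calls of these members over these intervals say nothing on a shift with age. At an unadjusted p under 0.05, 0 members and 1198 of 14610 genes passed from P1 to P21, and 3 members and 6427 genes from P21 to 5 weeks, and DESeq2 called 1 member in each. From P21 to 5 weeks, where 36% of all genes were called, the differences of Plin1 (-3.24 ± 1.34, adjusted p = 0.0545, edgeR), Adipoq (-3.17 ± 1.39, adjusted p = 0.0706) and Cidec (-2.95 ± 1.46, adjusted p = 0.111) were the closest to the threshold. Adipoq, Cidec and Plin1, called at P21 and not at 5 weeks, are thus not shown to differ between the ages. From P1 to P21 0.308% of all genes were called.

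Ucp1 set the 5-week hearts apart from one another. It had 1118 counts in nontransgenic heart 5wk_ntg_15928-7, 169 in Mfn2wt heart 5wk_Mfn2wt_15934-5, 91 in nontransgenic heart 5wk_ntg_15927-6 and 84 in Mfn2wt heart 5wk_Mfn2wt_15930-8, and 9 or fewer in each of the other 11 own-batch hearts of that age. The next most, 9, were in Mfn2wt heart 5wk_Mfn2wt_15931-9. The 5-week titles carry a number before the hyphen whose meaning the labels do not give. All Mfn2AA and tet-off hearts and nontransgenic heart 5wk_ntg_10287-6 share 2 such numbers and had 0 to 5 Ucp1 counts, and the 4 hearts with at least 84 counts carry others, as all Mfn2wt hearts do. Hearts with such other numbers could also be low, since 5wk_ntg_15935-10 had 0 counts in both libraries and 5wk_Mfn2wt_15926-4 and 5wk_ntg_15933-3 had 1 each. Genotype and what that number stands for cannot be told apart in the comparison of Mfn2AA with Mfn2wt hearts at 5 weeks, for Ucp1, Cfd and Retn alike.

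Counts of a member per count of Adipoq take the overall level of a heart out of the comparison. Among the 15 own-batch libraries with at least 10 Adipoq counts, Cidec stood at 1.39 to 3.28 counts per Adipoq count (median 2.56) and Plin1 at 0.800 to 2.40 (median 1.54). The highest ratio was 2.35 times the lowest for Cidec and 3.00 times for Plin1, so these 2 genes followed Adipoq most closely. Cfd ran from 2.53 to 11.7 (median 6.07), Lep from 0.0490 to 0.611 (median 0.211) and Retn from 0.0465 to 0.844 (median 0.417), so the highest ratio was 4.62 times the lowest for Cfd and 18.2 times for Retn. Ucp1 ran from 0 to 8.67.

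The 4 hearts with at least 84 Ucp1 counts had ratios of Cfd and Retn below the medians. In 5wk_ntg_15927-6, 5wk_ntg_15928-7, 5wk_Mfn2wt_15934-5 and 5wk_Mfn2wt_15930-8, Cfd stood at 2.53, 2.67, 2.93 and 4.36 counts per Adipoq count and Retn at 0.0526, 0.0465, 0.222 and 0.179. The second library of 5wk_ntg_15928-7 gave 0.115 for Retn. Hearts with little Ucp1 reached into these ranges, with Cfd at 3.33 in P21_Mfn2AA_10534-4 and 2.61 in 5wk_ntg_15933-3, run only in the P1 batch, and Retn at 0.183 in 5wk_Mfn2AA_10289-7, and P21_tetoff_10534-3 had a Ucp1 ratio of 1.0 beside a Cfd ratio of 6.33. Among 5-week hearts that share the 2 title numbers of the Mfn2AA hearts, 6 had at least 10 Adipoq counts. Their Cfd ratios were 5.07 to 11.7 (median 9.19) and their Ucp1 ratios 0 to 0.108. Tet-off hearts 5wk_tetoff_10289-2 and 5wk_tetoff_10289-3 share a number but fell below that limit. The first of them held 0.522 CPM of Adipoq, 1.74 CPM of Cfd and 0.435 CPM of Ucp1, so these ranges do not cover every such heart. The highest Cfd level of all, 69.1 CPM in Mfn2AA heart 5wk_Mfn2AA_10289-9, went with 5.93 CPM of Adipoq, while 5wk_ntg_15928-7 held 11.9 CPM of Adipoq and 31.7 CPM of Cfd. These hearts were grouped by their values after these were seen, and the ratios are given as a description.

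**Figure D5:**
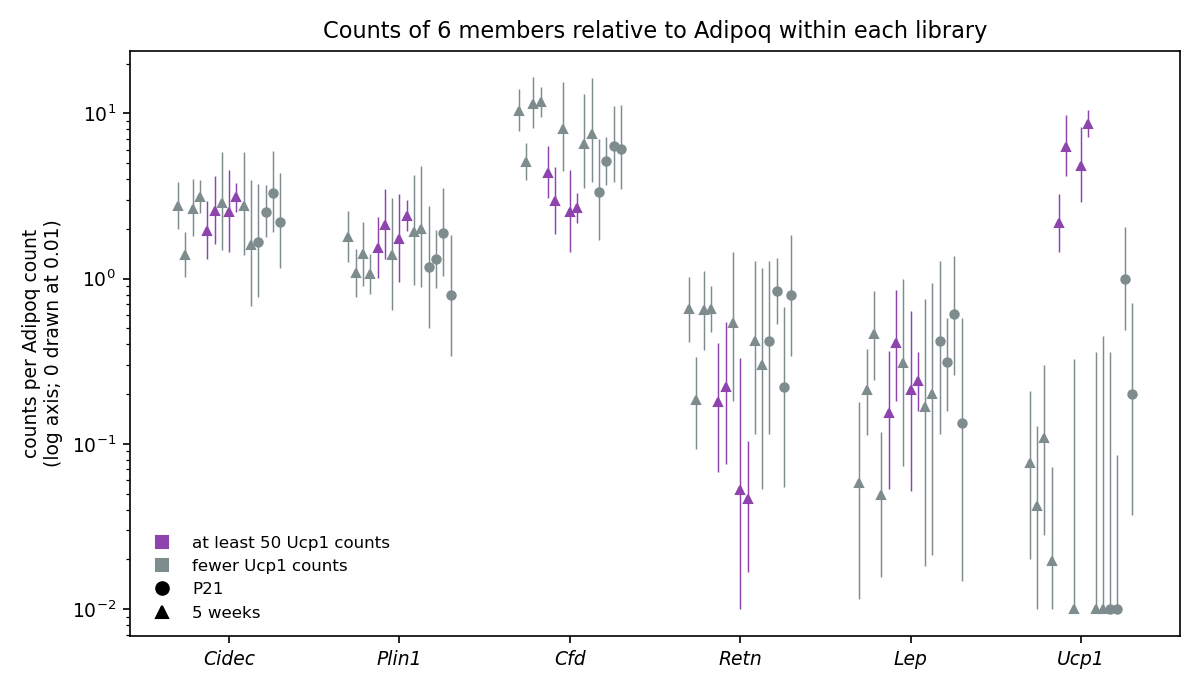
Counts of Cidec, Plin1, Cfd, Retn, Lep and Ucp1 per count of Adipoq in each own-batch library with at least 10 Adipoq counts (vertical log axis, bars are 95% exact intervals of counting error, bars reaching below 0.01 are shortened there). Libraries with at least 50 Ucp1 counts are purple; Cidec and Plin1 stay within 1.39 to 3.28 and 0.800 to 2.40, while Ucp1 spans 0 to 8.67.

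The hearts whose RNA was made into libraries at different times show what a preparation adds. Heart 5wk_ntg_15928-7 gave 11.9 and 11.8 CPM of Adipoq, 36.9 and 33.4 CPM of Cidec, and 103 CPM of Ucp1 both times. The high level was thus present in both libraries of that RNA. Other hearts agreed less: in 5wk_ntg_15935-10 Cidec measured 5.20 CPM in its own batch and 1.91 CPM in the P1 batch, and Plin1 3.62 and 1.21 CPM. Retn was higher in the P1 batch in 3 of 3 repeated 5-week hearts, by 1.98 to 3.65 times, on 1 to 14 counts per library. Among the repeated 5-week hearts none of 7 tested members was called between the preparations by edgeR or DESeq2 (10.2% of all genes were, and 1 member had an unadjusted p under 0.05), with Adipoq at -0.15 ± 0.26 (adjusted p = 0.787, edgeR). In the repeated P21 hearts Cidea and Fabp4 were tested and Fabp4 was called, higher in the P1 batch by 0.42 ± 0.07 (adjusted p = 0.00211, edgeR), where 14.1% of all genes were. Fabp4 was higher in 3 of 3 hearts (686, 498 and 589 CPM against 541, 358 and 449 CPM), and the call was lost without P21_ntg_10547-1.

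The genes most like Adipoq were found by Pearson's r of log2(CPM + 0.5) across the 56 own-batch libraries after the mean of each group was taken off, over 13966 genes. Among the members, Plin1 (r = 0.95) and Cidec (r = 0.93) were at ranks 1 and 2 of all genes, Cfd at rank 4 (r = 0.84), Retn at rank 15 (r = 0.67) and Ucp1 at rank 42 (r = 0.57). Cidea (r = 0.17) ranked 2426 and Fabp4 (r = 0.04) ranked 5412. Within the ages, r of Cidea was 0.09 at P1, -0.54 at P21 and 0.71 at 5 weeks. In 5wk_ntg_15928-7 Cidea measured 91.1 CPM with its own age, against 35.9 to 44.7 CPM in the other nontransgenic hearts there. Its library of the P1 batch gave 79.0 CPM. The 12 genes named by the rule, which passes over members and genes with provisional names (here 2200002D01Rik, r = 0.68), were Scd1 (0.87), Cdo1 (0.82), Pck1 (0.80), Car3 (0.80), Adrb3 (0.76), Hp (0.74), Rbp4 (0.72), Apoc1 (0.71), Fasn (0.71), S100b (0.68), Hydin (0.67) and Clstn3 (0.66). Scd1, Pck1 and Fasn encode enzymes of lipid synthesis, Adrb3 the adrenergic receptor through which fat is mobilised, and Rbp4 a retinol carrier that fat also secretes. The atrial markers Stard10 (rank 25), Myl4 (30), Mybphl (32), Myl7 (47), Nppa (58) and Sln (60) were also among the first 60 genes. Bmp10, Dkk3 and Gja5 were not. The libraries share depth and preparation within an age, and these r values are a description. Without 5wk_ntg_15928-7, Plin1 (0.94), Cidec (0.92) and Scd1 (0.84) stayed close to these values, while Ucp1 went to 0.41 and Cidea to -0.02.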

How the data were processed

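RNA of 57 mouse hearts was sequenced as 63 poly(A) libraries, from single ends and without strand, per the labels' protocols. Reads were aligned to mm10 with Bowtie2 and TopHat2 2.0.10, counted per gene with HTSeq (raw counts, not normalized, as deposited), and turned into FPKM by the authors with Cufflinks 2.1, per the submitters' processing notes. The deposited annotation gives exon positions (other unit: base positions). Levels are CPM scaled by TMM. Genes were tested on the counts with edgeR 4.0.16 (R 4.3.3; filterByExpr, TMM, quasi-likelihood F test, 1 fit per age of its 4 groups, 1 of the nontransgenic libraries of the P1 batch across ages, the heart as a block between preparations), with Benjamini-Hochberg adjustment over all tested genes and a threshold of 0.05. There were 19 comparisons. The fit was tested on simulated data with known changes. Replicates are separate hearts by their titles, which do not say whether they share litters, and p-values measure the spread between these hearts.

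Members that passed the filter are all named in the age comparisons and in those of Mfn2AA with Mfn2wt or tet-off hearts within an age. In the comparisons of controls, of preparations and of the shift with age, only some are named. Of the other fat cell lists, up to 4 called genes with the greatest change are named, and the 12 genes most like Adipoq among those that are no member and have no provisional name. The members and lists were chosen with earlier results of these data known, and the sum of 6 members was chosen after their values were seen and is not tested. Alternatives were RLE scaling, no filter, a mean of 1 CPM as filter, DESeq2 1.42.0, limma 3.58.1 on log2(FPKM + 1), 2 groups alone, the title number as a block, and each library left out. The fit without P21 libraries of high atrial markers was added after the data were seen. Fold bounds against a group at 0 use 3 counts over the group, and intervals are 95% exact intervals that cover counting error only. Promoter windows came from RefSeq. No column of the tables was left unmapped.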

Additional observations from a re-analysis of the deposited data

Results flagged for a closer look

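In groups of 4 to 10 libraries, the highest and lowest library was checked for its distance from the rest on the log2(CPM + 0.5) scale, over 71 pairs of a gene (or the sum of 6 members) and a group. Chance flags about 1 in 20, and 6 were flagged. Heart 5wk_ntg_15928-7, a nontransgenic heart of 5 weeks, accounted for 3 of them. In its library of the P1 batch Cidec measured 33.4 CPM, against 1.91 to 2.72 CPM in the other 3 nontransgenic hearts there, and the sum of 6 members 97.2 CPM, against 10.3 to 14.9 CPM. In its own-batch library Lep measured 2.86 CPM, against 0.287 to 0.315 CPM.

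The other 3 were low values. Fabp4 measured 250.035 CPM in nontransgenic heart 5wk_ntg_15935-10 of 5 weeks, against 545 to 624 CPM in the other 3, and 403 CPM in the second library of the same RNA. Cidea measured 16.6 CPM in tet-off heart P21_tetoff_10549-2 of P21, against 26.0 to 29.1 CPM in the other 4; that heart had an atrial marker sum of 10478 CPM, whose part was not tested. Retn measured 0.272 CPM in the P1-batch library of 5wk_ntg_15927-6, against 1.35 to 1.56 CPM in the other 3.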

How the results depend on the processing

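The number of called members was recomputed 291 times under other settings and moved by over 1.5 times in 30. Between Mfn2AA and Mfn2wt hearts at P21 it was 4, and 0 with limma on FPKM, 0 with the 2 groups alone (only 2 members passed the filter, none of the 4), 0 without the 5 libraries of high atrial markers (added after the data were seen; these include the 3 hearts that held the high values, so nothing follows from it), and 0 to 4 when a heart was left out (0 without P21_Mfn2AA_10534-5). Between the same groups at 5 weeks it was 3, and 1 with the 2 groups alone and 0 to 2 when a heart was left out (0 without 5wk_Mfn2AA_10289-9). Between Mfn2AA and tet-off hearts at 5 weeks it was 2, and 4 with DESeq2, 4 with the 2 groups alone and 0 to 3 when a heart was left out. Between preparations of P21 RNA it was 1, and 0 with limma, 0 with no replicate block for the heart and 0 to 1 when a heart was left out; for 5-week RNA it was 0 with no replicate block. For the shift with age of the difference between Mfn2AA and Mfn2wt hearts it was 0, and 1 with DESeq2 from P1 to P21, 1 with DESeq2 from P21 to 5 weeks (Ucp1, 10.9, adjusted p = 0.0013, with the sign opposite to edgeR and no count in any P21 Mfn2AA heart) and 0 to 2 when a heart was left out. With the title number as a replicate block, which the labels do not say marks a shared litter or day, 0 members were called between Mfn2AA and tet-off hearts at P1 and 0 between Mfn2wt and nontransgenic hearts at P21; same-numbered samples deviated together by r = -0.03 and 0.23 at P1 and 0.27 at P21. In the age comparisons the counts ran from 2 to 3, 3 to 5 and 4 to 5 when a heart was left out. Of 1685 values of single members under other settings, 45 lost a call and 22 gained one. Except where a setting tests fewer genes or samples, the cause was not tested. Most members have under 10 counts in many hearts, which limits every call at P21.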
